A study of Mus musculus with 18 samples.

Results

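The genes described here are 46 genes of mitosis and of the spindle checkpoint, chosen by name with earlier results of these data known. They comprise cyclins, CDK1 and its phosphatase, mitotic kinases, checkpoint proteins and partners of the anaphase-promoting complex. Also included are the chromosomal passenger complex, centromere and kinetochore proteins, spindle motors, cytokinesis proteins and chromosome structure proteins. Of the 46 genes, 45 had a probe set annotated to their symbol alone, among 18193 genes with such a probe set on the array, and for each gene the probe set with the highest mean signal over all 18 arrays was used. Ccnb1 was not analysed here. All 45 passed the filter on low values, which 12713 genes passed. The samples were whole ovaries of mice on the strain background the labels give as C57B6J/S129, aged 21 days when untreated or first injected, and total RNA was measured on Affymetrix Mouse Genome 430 2.0 arrays. Females were either Pik3cd+/- or Pik3cd-/-, with 1 or no intact copy of the gene for the catalytic p110 delta subunit of PI3-kinase, so the controls carried the altered allele too. In each genotype 3 groups were formed: untreated, 44 hours after a single injection of 10 IU PMSG (a gonadotropin with mainly FSH-like action), and given E2 (oestradiol) in 3 injections of 0.03 ml, 24 hours apart, with ovaries taken at 72 hours; the labels state no E2 concentration. Each of the 6 groups had 3 arrays, labelled as biological repeats, and the labels do not say how many animals a repeat holds. No vehicle-injected or age-matched group was among the 6, so each treatment difference includes the injection and the hours that passed.

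Cells enter mitosis when cyclin B and CDK1 are activated by CDC25 phosphatases. Polo and Aurora kinases then build the spindle, kinetochores tie chromosomes to its fibres, and the spindle checkpoint holds the anaphase-promoting complex back until every chromosome is attached. Transcripts of these genes accumulate together in late S phase, G2 and mitosis, so their summed level is widely used as a sign of how many cells are dividing. In the ovary of a young mouse, granulosa cells of growing follicles are the main dividing cells, and FSH and oestradiol are known to affect their division. Oocytes do not divide but store transcripts of many of the same genes for meiosis. In whole ovaries, fewer cells of a type and less RNA per cell cannot be told apart.

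The median intensity of an array was 48.4 to 50.9, and arrays correlated with those of their own group at 0.969 to 0.993 on average. Of 6 Pik3cd probe sets, 1 had group means of 67.1 to 70.4 in Pik3cd+/- and 22.4 to 26.2 in Pik3cd-/- ovaries, and another had 20.8 to 26.8 against 12.7 to 13.6. The other four were at like levels in both genotypes, and the labels do not say which exons were altered. Granulosa markers were bright in all 6 groups, with a mean log2 level of 10.22 to 11.61 in single arrays. The lowest granulosa levels were those of Pik3cd-/- untreated replicate 2 (10.22) and Pik3cd-/- E2 replicate 1 (10.67), and the highest that of Pik3cd+/- PMSG replicate 3 (11.61). The values below are deposited intensities in the order of replicates 1, 2 and 3. Differences are on the log2 scale after adding 8.58 to each intensity, given with their standard error (3 arrays a group), and a gene is said to have risen or fallen only at an adjusted p under 0.05 over all 12713 genes by limma. Intensities of different genes come from different probes and are not compared with each other.

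The mitosis genes were lower 44 hours after PMSG in Pik3cd+/- ovaries, and their mean level was also below that of untreated Pik3cd+/- ovaries in all 9 Pik3cd-/- arrays. The mean log2 level over the 45 genes was 9.80, 9.67 and 9.65 in the untreated Pik3cd+/- arrays and 9.23, 9.16 and 9.46 after PMSG. After E2 it was 9.63, 9.75 and 9.62. In Pik3cd-/- ovaries it was 9.40, 9.29 and 9.58 untreated, 9.39, 9.33 and 9.45 after PMSG, and 9.22, 9.60 and 9.44 after E2. The untreated and E2-treated Pik3cd+/- arrays thus held the 6 highest of the 18 values, and none of the other 12 arrays reached them. Of the 45 genes, 18 had their highest group mean in untreated and 19 in E2-treated Pik3cd+/- ovaries. The lowest group mean was that of PMSG-treated Pik3cd+/- ovaries in 24 genes and of untreated Pik3cd-/- ovaries in 12.

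**Figure D1:**
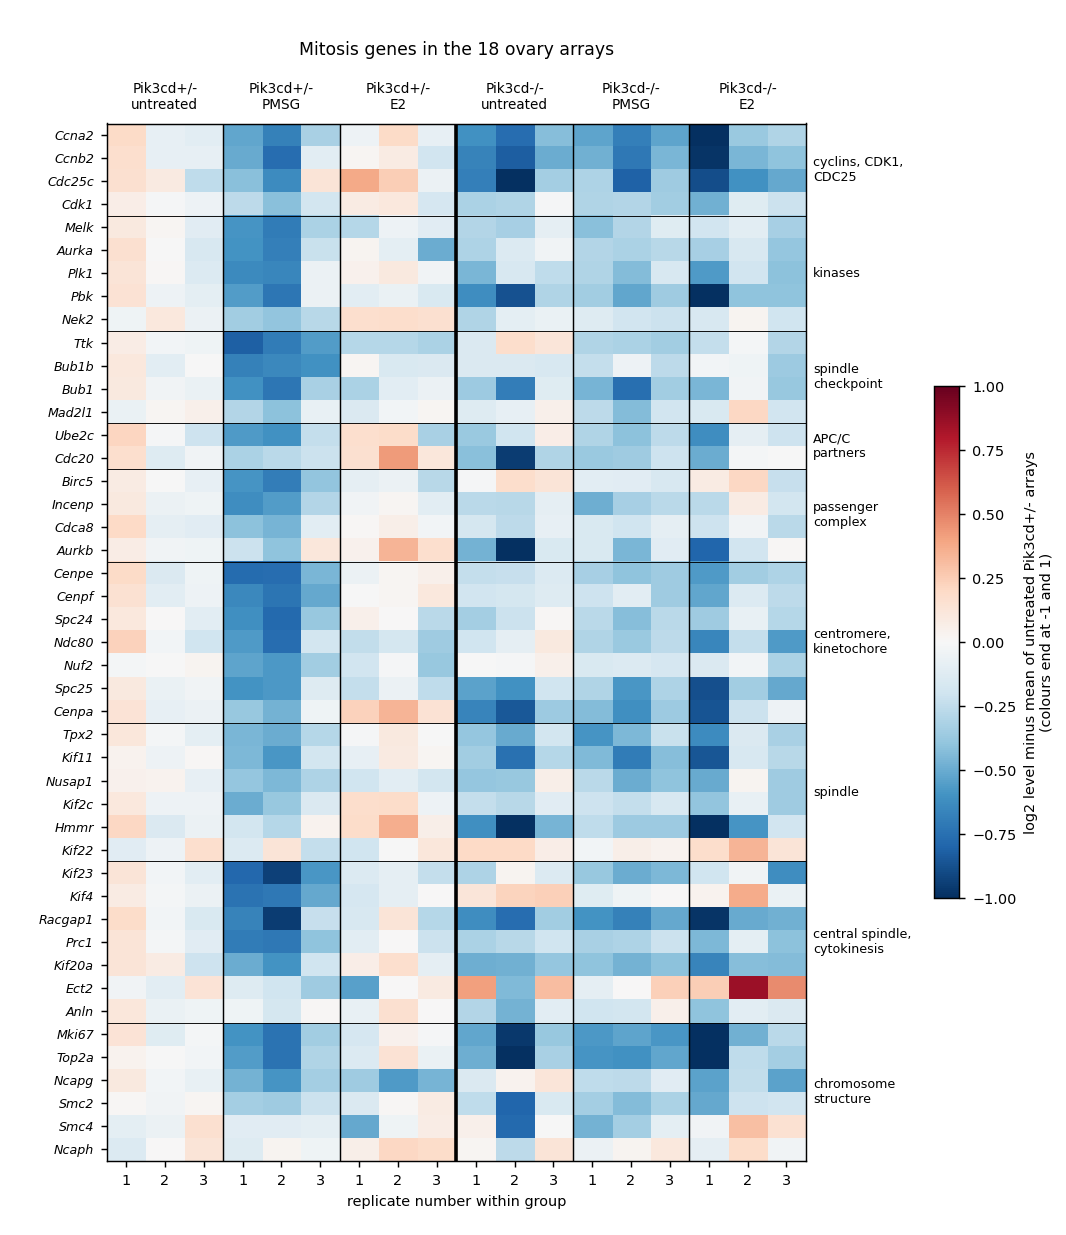
Level of the 45 mitosis genes (rows, grouped by role) in each of the 18 arrays (columns, 3 per group), as log2 level minus the mean of the 3 untreated Pik3cd+/- arrays, with colours ending at -1 and 1. The PMSG-treated Pik3cd+/- arrays and most Pik3cd-/- arrays are below 0 for most genes, and Ect2, Kif22 and Kif4 are above 0 in several Pik3cd-/- arrays.

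PMSG was compared with no treatment to see what the gonadotropin does to the ovary of each genotype. In Pik3cd+/- ovaries 26 of the 45 genes fell and 0 rose, against 11.9% of all tested genes that fell and 5.81% that rose. All 45 differences were below 0, as were 57.6% of those of all tested genes. Their median was -0.45, which is a level 26.7% below that of untreated ovaries, beside a median of -0.05 over all tested genes. The differences ran from -0.77 for Kif23 to -0.05 for Ncaph, and 0 of the 45 reached the 2-fold change that the study set as its limit. For 32 genes the 3 PMSG arrays all lay below the 3 untreated arrays, which was so for 24.9% of all tested genes.

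Short motifs in the promoters of these genes were counted. Windows from 250 bases before to 50 after the start were held by RefSeq (GRCm38.p6) for 36 of the 45 genes, 38 windows in all. Ect2 and Prc1 each had 2 windows, and both were counted. Both strands were searched and overlapping matches counted. The motif CCAAT, which reads as ATTGG on the opposite strand, is a box bound by the factor NF-Y. The motif TTTGAA, which reads as TTCAAA on the opposite strand, and the related motif TTTAAA, which reads alike on both, are forms of the cell cycle genes homology region found in many promoters of G2 and mitosis genes. CCAAT was present in 29 of the 38 windows (76.3%) and in 37.4% of all 32851 windows of that length. TTTGAA was in 29 windows (76.3%) against 17.9% of all, and TTTAAA in 8 (21.1%) against 13.2%. At least 2 CCAAT boxes together with either of the latter motifs were in 17 windows (44.7%) and in 3.13% of all. The genes were chosen by name as mitosis genes, so these shares describe the list and not its change after PMSG. A match describes the letters and is not a site of binding. Among genes that fell after PMSG, 14 of the 21 with a window held TTTGAA, and among those that did not pass the test 13 of 15. At least 2 CCAAT boxes together with TTTGAA or TTTAAA were held by 6 of the 21 and by 10 of the 15. Neither the motif nor the pair was thus confined to the genes that fell, and the pair was less frequent among them. That difference was not tested. In the 6 windows below, from 150 bases before the start to its first 20 bases, both kinds of motif lie within the stretch and are in capitals. With genes of several windows left out, they are the first 6 of 10 such genes by p for PMSG in Pik3cd+/- ovaries. The first 3 had fallen and the rest had not passed the test.
Ttk, chr9:83834539-83834708, plus strand: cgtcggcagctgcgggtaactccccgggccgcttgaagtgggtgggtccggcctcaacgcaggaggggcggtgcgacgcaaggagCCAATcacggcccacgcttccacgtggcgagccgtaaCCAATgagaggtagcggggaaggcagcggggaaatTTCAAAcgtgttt
Cenpf, chr1:189688067-189688236, minus strand: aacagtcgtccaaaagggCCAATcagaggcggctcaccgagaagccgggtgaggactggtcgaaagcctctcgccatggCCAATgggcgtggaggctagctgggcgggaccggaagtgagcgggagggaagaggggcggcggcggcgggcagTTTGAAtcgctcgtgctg
Cdca8, chr4:124936898-124937067, minus strand: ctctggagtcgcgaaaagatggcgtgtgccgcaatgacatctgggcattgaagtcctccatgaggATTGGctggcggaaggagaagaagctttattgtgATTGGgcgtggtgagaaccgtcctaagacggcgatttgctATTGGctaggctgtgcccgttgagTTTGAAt
Top2a, chr11:99024170-99024339, minus strand: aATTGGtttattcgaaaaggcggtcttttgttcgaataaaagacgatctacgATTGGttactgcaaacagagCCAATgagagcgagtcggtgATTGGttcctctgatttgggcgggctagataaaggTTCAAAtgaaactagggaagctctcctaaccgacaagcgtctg
Ube2c, chr2:164769779-164769948, plus strand: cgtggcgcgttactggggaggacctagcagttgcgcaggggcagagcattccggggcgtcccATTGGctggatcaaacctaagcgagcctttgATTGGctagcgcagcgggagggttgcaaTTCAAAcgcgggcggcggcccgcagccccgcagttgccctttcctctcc
Cdk1, chr10:69352893-69353062, minus strand: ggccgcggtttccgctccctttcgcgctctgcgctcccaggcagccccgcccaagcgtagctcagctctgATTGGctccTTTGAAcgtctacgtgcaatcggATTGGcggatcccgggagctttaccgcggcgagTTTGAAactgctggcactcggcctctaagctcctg

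Of the 4 genes for cyclins, CDK1 and its phosphatase, 1 fell after PMSG in Pik3cd+/- ovaries. Ccna2 encodes cyclin A2, the CDK partner of S and G2 phase, and its intensities were 1886, 1561 and 1532 in untreated Pik3cd+/- ovaries, 1153, 1033 and 1316 after PMSG and 1598, 1886 and 1563 after E2. The Pik3cd-/- arrays read 1081, 972 and 1229.8 untreated, 1144, 1027 and 1143 after PMSG and 817, 1278 and 1340.3 after E2. The Pik3cd+/- arrays after PMSG all lay below the untreated arrays of that genotype and within the range of the Pik3cd-/- arrays. Ccna2 fell by 0.51 ± 0.16 (adjusted p = 0.0382). Ccnb2, the CDK1 partner cyclin B2, differed by -0.46 ± 0.17 (adjusted p = 0.0694) and Cdk1 itself by -0.29 ± 0.11 (adjusted p = 0.068), without overlap between the arrays of either. The phosphatase gene Cdc25c differed by -0.30 ± 0.21 (adjusted p = 0.341).

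Of the 5 mitotic kinases, 4 fell. Melk, a kinase of dividing and progenitor cells, had intensities of 579, 549 and 499.5 in untreated Pik3cd+/- ovaries, 358, 330.1 and 432 after PMSG and 442, 523 and 500.2 after E2. Its Pik3cd-/- arrays read 439.7, 429 and 509 untreated, 404, 439.6 and 497 after PMSG and 474, 503 and 429 after E2. The PMSG arrays of Pik3cd+/- ovaries were clear of the untreated ones, while in Pik3cd-/- ovaries the 3 groups overlapped. The fall was -0.54 ± 0.11 (adjusted p = 0.00605). Aurka, the Aurora kinase of spindle poles, fell (-0.50 ± 0.14, adjusted p = 0.0222), as did the polo kinase Plk1 (-0.45 ± 0.14, adjusted p = 0.0439) and Nek2, which acts in centrosome separation (-0.34 ± 0.08, adjusted p = 0.0114). The mitotic kinase Pbk did not pass the test (-0.45 ± 0.18, adjusted p = 0.0947). Its intensities were 2002, 1749 and 1691 in untreated Pik3cd+/- ovaries, 1227, 1096 and 1735 after PMSG and 1677, 1728 and 1624 after E2, with PMSG replicate 3 inside the untreated range. Pbk in Pik3cd-/- ovaries read 1176, 984 and 1467 untreated, 1419, 1262 and 1409 after PMSG and 894, 1368 and 1366 after E2.

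In the spindle checkpoint 3 of 4 genes fell, and the kinase Ttk, which starts checkpoint signalling at unattached kinetochores, had the smallest adjusted p of all 45 genes. Ttk intensities were 996, 927 and 919.6 in untreated Pik3cd+/- ovaries, 535, 581 and 639 after PMSG and 775, 777 and 760.1 after E2. Intensities in Pik3cd-/- ovaries were 855, 1072 and 1033 untreated, 768, 759 and 742 after PMSG and 803, 932 and 772 after E2. In each genotype the 3 PMSG arrays were the lowest for Ttk, and those of Pik3cd+/- ovaries were lower than those of Pik3cd-/- ovaries. The difference was -0.69 ± 0.09 in Pik3cd+/- ovaries (adjusted p = 0.000437). Bub1b, a part of the inhibitor that holds the anaphase-promoting complex back, followed with -0.64 ± 0.09 (adjusted p = 0.000611), and the checkpoint kinase Bub1 with -0.55 ± 0.15 (adjusted p = 0.0219). Bub1b read 1209.8, 1048 and 1123 untreated and 701, 718 and 736 after PMSG in Pik3cd+/- ovaries, against 1015, 1017 and 1008 and 954, 1083 and 935 in Pik3cd-/- ovaries. The PMSG-treated Pik3cd+/- arrays lay below all arrays of the other 3 groups. Mad2l1, the MAD2 protein that binds CDC20, did not pass the test (-0.26 ± 0.11, adjusted p = 0.102). Its arrays read 1703, 1803 and 1846 in untreated Pik3cd+/- ovaries, 1451, 1339 and 1689.8 after PMSG and 1609, 1749 and 1808 after E2. The Pik3cd-/- values were 1629, 1685 and 1845 untreated, 1485, 1316 and 1563 after PMSG and 1600.3, 2059 and 1562 after E2, so the PMSG arrays were below the untreated ones in both genotypes.

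Neither of the 2 partners of the anaphase-promoting complex passed the test. Ube2c, its ubiquitin-conjugating enzyme, read 3315, 2831 and 2461 in untreated Pik3cd+/- ovaries, 1917, 1865 and 2414 after PMSG and 3206, 3239 and 2274 after E2. Pik3cd-/- ovaries gave 2194, 2483 and 2976 untreated, 2305, 2144 and 2379 after PMSG and 1848, 2678 and 2465 after E2. PMSG and untreated arrays were separate in Pik3cd+/- ovaries and overlapped in Pik3cd-/- ovaries, and the difference was -0.47 ± 0.17 (adjusted p = 0.0596). For the activator Cdc20 the difference was -0.27 ± 0.15 (adjusted p = 0.244).

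The chromosomal passenger complex corrects wrong attachments of chromosomes, and 3 of its 4 genes fell. Birc5, which encodes survivin, had intensities of 1423, 1337 and 1269 in untreated Pik3cd+/- ovaries, 889, 829 and 1021 after PMSG and 1260.4, 1291 and 1105 after E2. Its Pik3cd-/- intensities were 1329, 1515 and 1467 untreated, 1248, 1243 and 1200.4 after PMSG and 1422, 1553 and 1140.1 after E2. The PMSG-treated Pik3cd+/- arrays were below the 15 others. The difference was -0.56 ± 0.11 (adjusted p = 0.0037). The scaffold Incenp fell (-0.49 ± 0.10, adjusted p = 0.0058), and so did Cdca8, or borealin (-0.33 ± 0.10, adjusted p = 0.0382). Aurkb, the kinase of the complex, differed by -0.17 ± 0.23 and did not pass the test (adjusted p = 0.653).

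At the centromere and kinetochore 5 of 7 genes fell. Cenpe, a kinesin that moves chromosomes to the spindle equator, read 473, 372 and 399.9 in untreated Pik3cd+/- ovaries, 239, 240.0 and 299 after PMSG and 397, 419 and 429 after E2. The Pik3cd-/- arrays gave 349.6, 349.9 and 374 untreated, 326, 311 and 321 after PMSG and 277, 322 and 332 after E2. All PMSG arrays were below all untreated arrays in each genotype, with a wider gap in Pik3cd+/- ovaries (-0.66 ± 0.10, adjusted p = 0.00106). Cenpf, which binds the kinetochore in G2, fell by 0.63 ± 0.10 (adjusted p = 0.00133). Of the 4 subunits of the NDC80 complex, which grips spindle fibres, Nuf2 (-0.48 ± 0.09), Spc24 (-0.59 ± 0.12) and Ndc80 (-0.51 ± 0.15) fell, and Spc25 did not pass the test (-0.44 ± 0.15, adjusted p = 0.0553). Cenpa, the histone H3 variant of centromeres, read 998, 855 and 870.0 in untreated Pik3cd+/- ovaries, 695, 649 and 878 after PMSG and 1063, 1145 and 1004 after E2. Among Pik3cd-/- ovaries the values were 570.4, 500.5 and 701 untreated, 666, 590.4 and 703 after PMSG and 493, 778 and 872 after E2. Its PMSG replicate 3 lay inside the untreated Pik3cd+/- range, and the difference was -0.30 ± 0.18 (adjusted p = 0.251).

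Among spindle motors and assembly factors 3 of 6 genes fell. Tpx2, which activates Aurora A and nucleates spindle fibres, read 481, 439.9 and 416 in untreated Pik3cd+/- ovaries, 322, 313 and 365 after PMSG and 441, 477 and 445 after E2. Its Pik3cd-/- values were 339, 311 and 391 untreated, 292, 324 and 380.4 after PMSG and 285, 402 and 353 after E2. The PMSG arrays were below the untreated ones in Pik3cd+/- ovaries, within the range of the Pik3cd-/- arrays (-0.41 ± 0.12, adjusted p = 0.0329). Kif2c, a kinesin that shortens spindle fibres (-0.34 ± 0.11), and Nusap1, which bundles them (-0.38 ± 0.13), fell with adjusted p of 0.0382 and 0.0473. Kif11, the motor that separates spindle poles, did not pass the test (-0.40 ± 0.16, adjusted p = 0.0946), nor did the spindle assembly factor Hmmr (-0.14 ± 0.18, adjusted p = 0.624). The chromosome-bound kinesin Kif22 read 2068, 2165 and 2515 in untreated Pik3cd+/- ovaries, 2039.6, 2455 and 1902 after PMSG and 1955, 2239 and 2424 after E2. Pik3cd-/- arrays gave 2575, 2574 and 2345 untreated, 2204, 2333 and 2302 after PMSG and 2527, 2842 and 2449 after E2. PMSG and untreated arrays overlapped in Pik3cd+/- ovaries and were separate in Pik3cd-/- ovaries, PMSG being lower, and the difference in Pik3cd+/- ovaries was -0.08 ± 0.10 (adjusted p = 0.619).

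The central spindle and cytokinesis set had 5 of 7 genes that fell, among them the largest difference of all 45. Kif4, a kinesin of chromosomes and of the central spindle, read 488, 454 and 441 in untreated Pik3cd+/- ovaries, 272, 278 and 321 after PMSG and 410.1, 432 and 463 after E2. Pik3cd-/- intensities were 501, 539 and 544 untreated, 423, 447 and 462 after PMSG and 472, 599 and 439 after E2. The 3 PMSG-treated Pik3cd+/- arrays were below all other arrays (-0.65 ± 0.10, adjusted p = 0.00116). Kif23, the kinesin of the centralspindlin complex, fell by 0.77 ± 0.13 (adjusted p = 0.00221), from 853, 761 and 724 to 448, 403 and 517. Its partner Racgap1 fell too (-0.62 ± 0.18, adjusted p = 0.027), as did Kif20a, which carries the passenger complex to the central spindle (-0.43 ± 0.11, adjusted p = 0.0177). Prc1, which bundles the fibres of the central spindle, read 1273, 1150.4 and 1076 in untreated Pik3cd+/- ovaries, 714, 704 and 876 after PMSG and 1081, 1165 and 999.5 after E2. Its Pik3cd-/- arrays read 931, 959.8 and 1013 untreated, 930.2, 937 and 1001 after PMSG and 849.6, 1087 and 872 after E2. The PMSG arrays of Pik3cd+/- ovaries were clear of the untreated ones and Prc1 fell (-0.61 ± 0.10, adjusted p = 0.00221). Ect2, the activator of RhoA at the division site (-0.23 ± 0.21, adjusted p = 0.481), and Anln, or anillin, of the contractile ring (-0.07 ± 0.11, adjusted p = 0.702) did not pass the test.

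Of the 6 chromosome structure genes, 2 fell. Ncapg, a subunit of condensin, read 923, 845 and 814 in untreated Pik3cd+/- ovaries, 618, 567 and 678 after PMSG and 669.9, 579 and 619 after E2. The Pik3cd-/- values were 778, 879 and 934 untreated, 721, 715 and 796 after PMSG and 589.7, 725 and 590.2 after E2. In Pik3cd+/- ovaries both treated groups lay below the untreated arrays (-0.47 ± 0.10 after PMSG, adjusted p = 0.00662). Mki67, the Ki-67 protein of the chromosome surface, fell by 0.56 ± 0.19 (adjusted p = 0.0477). Top2a, which untangles DNA, had a difference of -0.54 ± 0.18 and did not pass the test (adjusted p = 0.0562), and neither did the condensin genes Smc2 (-0.30 ± 0.13), Smc4 (-0.11 ± 0.19) and Ncaph (-0.05 ± 0.10). Smc4 read 3194, 3277 and 3825 in untreated Pik3cd+/- ovaries, 3167, 3158 and 3198 after PMSG and 2397, 3329 and 3603 after E2. Values for Pik3cd-/- ovaries were 3545, 1988 and 3405 untreated, 2465, 2700.1 and 3198 after PMSG and 3342, 4211 and 3812 after E2. PMSG and untreated arrays overlapped in each genotype, and untreated replicate 2 of the Pik3cd-/- ovaries was the lowest of the 18.

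**Figure D2:**
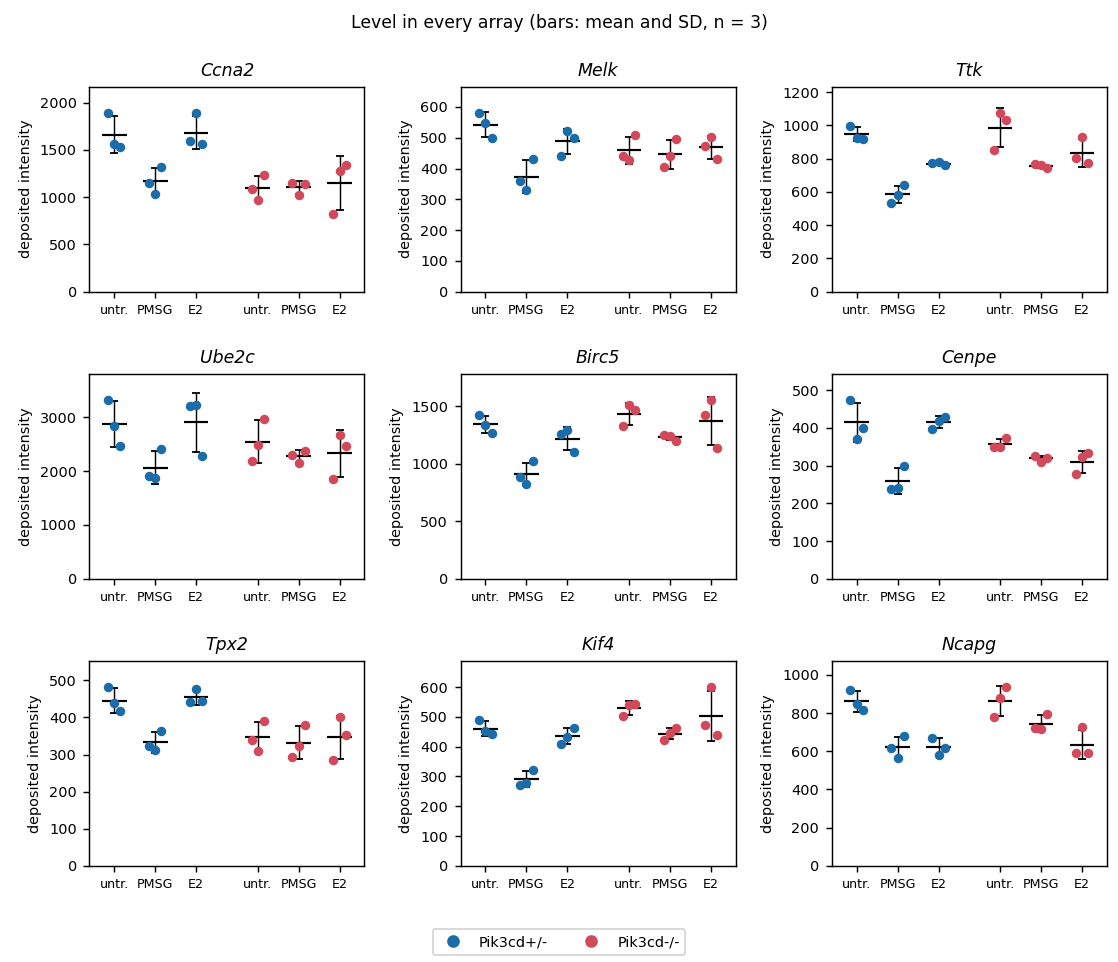
Deposited intensity (vertical axis, starting at 0) in each of the 18 arrays for the gene with the smallest adjusted p after PMSG in each of the 9 roles, with points for arrays and bars for the mean and SD of 3 arrays. In Ttk, Birc5 and Kif4 the 3 PMSG-treated Pik3cd+/- arrays are below the other 15, while in Ccna2 and Tpx2 the untreated Pik3cd-/- arrays overlap with those after PMSG.

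All probe sets of the 45 genes were also read for PMSG in Pik3cd+/- ovaries, and 15 of the genes had only 1. The 45 genes had 101 probe sets, 82 of which passed the filter, the brightest of each gene included. When each was tested by itself 41 fell, 0 rose and 80 were below 0. Of all 21545 probe sets tested in this way, 10.1% fell and 5.44% rose. In 27 genes at least 1 probe set fell. For Kif22 the brightest probe set differed by -0.08 while the others gave -0.56 and -0.55, both called lower in that test (adjusted p = 0.0144 and 0.0137). For Hmmr, whose brightest probe set differed by -0.14, 2 others gave 0.21 and 0.02 and 1 gave -0.45, and 0 passed the test by limma. Ncaph (-0.05 against -0.39) and Smc4 (-0.11 against -0.26 and -0.36) also had a dimmer probe set that fell, with adjusted p of 0.0304 and 0.0141. Leaving out single arrays gave from 13 to 31 called genes: 31 without PMSG replicate 3, 23 without untreated replicate 3, 14 without untreated replicate 1, 13 without untreated replicate 2, and 14 without PMSG replicate 1 or replicate 2 of the Pik3cd+/- ovaries. Melk, Ttk, Bub1b, Birc5, Nuf2, Spc24, Kif4, Kif23, Prc1 and Ncapg fell whichever array was left out and under every alternative processing tried.

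In Pik3cd-/- ovaries 1 of the 45 genes, Ttk, fell after PMSG (-0.37 ± 0.09, adjusted p = 0.0438), and 0 rose, beside 0.684% of all tested genes that fell and 1.71% that rose. The Ttk call ended without untreated replicate 2 or 3 or any PMSG replicate of that genotype, and also with no filter, with the mean of all probe sets and in a fit of these groups alone, among other settings. The median difference of the 45 genes was -0.04, with 28 below 0 and 17 above, beside -0.01 for all tested genes. For 9 genes the PMSG arrays lay below all untreated arrays (14.4% of all tested genes), among them Ttk, Birc5, Cenpe, Nuf2, Ndc80, Kif4, Kif23, Mad2l1 and Kif22. The differences ran from -0.37 (Ttk) to 0.39 (Hmmr).

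**Figure D3:**
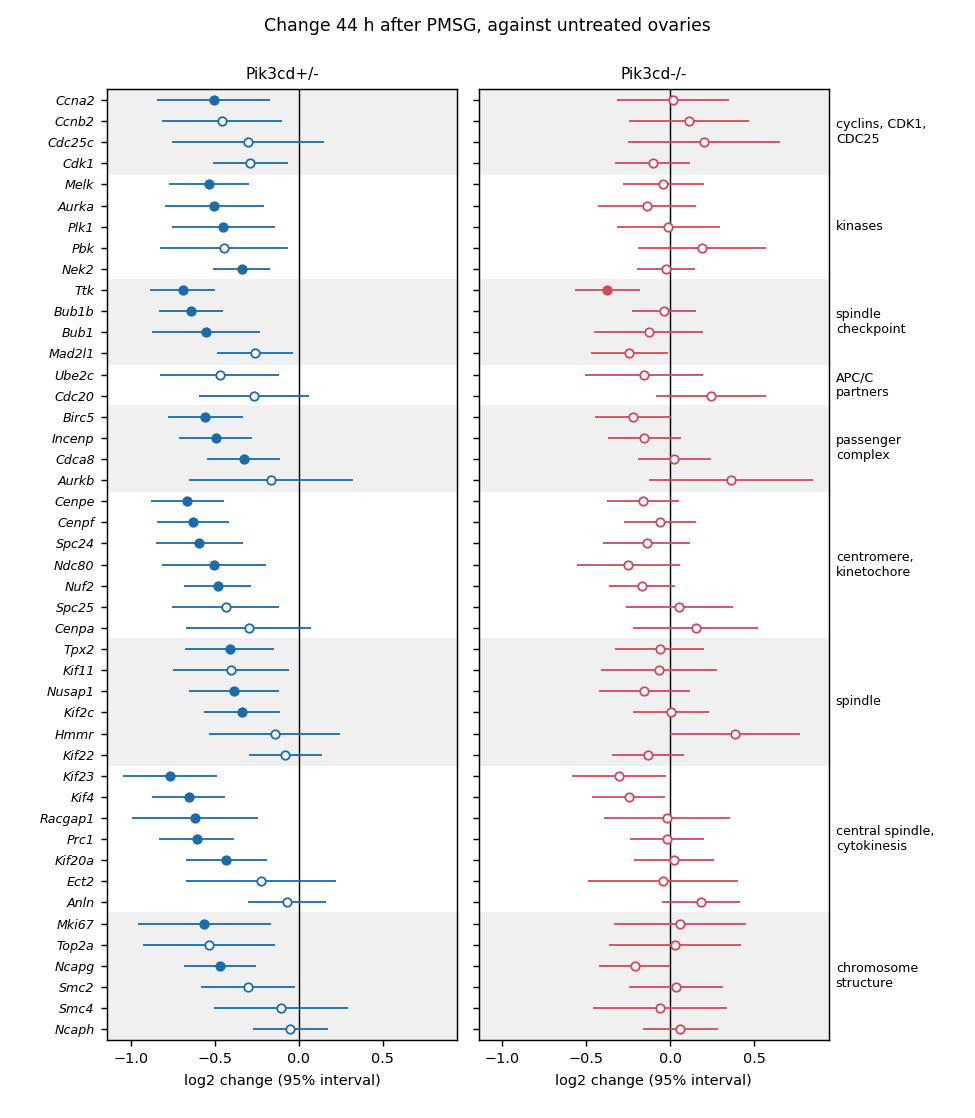
Log2 difference between PMSG-treated and untreated ovaries for each of the 45 genes (rows, by role) in Pik3cd+/- (left) and Pik3cd-/- (right), with the 95% interval of the fit and filled points for an adjusted p under 0.05. All 45 points are below 0 on the left with 26 filled, while the right panel is centred near 0 with 1 filled point, Ttk.

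Whether the PMSG difference itself depended on genotype was tested as an interaction, the difference in Pik3cd-/- minus that in Pik3cd+/- ovaries. By limma 0 of the 45 genes passed an adjusted p of 0.05, as did 0 of all tested genes (0%), and the smallest adjusted p was 0.245, for Bub1b (0.61 ± 0.13). At an unadjusted p under 0.05 there were 25 of the 45 genes, beside 9.39% of all tested genes. The interaction was above 0 for 44 genes, Kif22 being the exception (-0.05 ± 0.14), and its median was 0.41 beside 0.04 for all tested genes. The largest values were those of Pbk (0.63 ± 0.25), Mki67 (0.62 ± 0.26) and Bub1b. The fall after PMSG in Pik3cd+/- ovaries was therefore not shown to differ between genotypes gene by gene. The untreated Pik3cd+/- and Pik3cd-/- arrays enter both this comparison and the genotype difference without treatment, so these values are not independent of each other.

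Genotypes were compared within each state to see what loss of the second Pik3cd copy does to the ovary. Untreated Pik3cd-/- ovaries had 1 gene that was lower, Kif20a (-0.45 ± 0.11, adjusted p = 0.0498), and 0 that were higher, beside 1.34% and 0.834% of all tested genes. Kif20a read 360.4, 348 and 284 in Pik3cd+/- and 232, 234 and 249 in Pik3cd-/- ovaries, without overlap. The median difference of the 45 genes was -0.24, a level 15.1% below that of Pik3cd+/- ovaries, with 38 below 0, beside -0.01 for all tested genes. In 25 genes the Pik3cd-/- arrays all lay below the Pik3cd+/- arrays, which was so for 14.1% of all tested genes. At an unadjusted p under 0.05 there were 20, a share not counted over all tested genes here. The largest differences were those of Hmmr (-0.71 ± 0.18), Cdc25c (-0.69 ± 0.21), Ccnb2 (-0.66 ± 0.17), Cenpa (-0.62 ± 0.18) and Mki67 (-0.62 ± 0.19), with adjusted p of 0.0523, 0.0858, 0.0505, 0.0696 and 0.0811. Several genes that fell after PMSG in Pik3cd+/- ovaries had small genotype differences here, among them Ttk (0.05 ± 0.09), Birc5 (0.10 ± 0.11), Nuf2 (0.01 ± 0.09) and Ncapg (0.00 ± 0.10). For Kif4 the Pik3cd-/- arrays all lay above the Pik3cd+/- arrays (0.19 ± 0.10, adjusted p = 0.296). Untreated replicate 2 of the Pik3cd-/- ovaries, with the lowest granulosa marker level, was also the lowest of the 18 arrays for several genes, and without it the median was -0.19 and 0 genes passed by limma. The Kif20a call ended without untreated Pik3cd+/- replicate 1 or 2 or untreated Pik3cd-/- replicate 1 or 2, each leaving 0, and without Pik3cd-/- replicate 3 there were 12 lower genes.

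After PMSG, 5 of the 45 genes were higher in Pik3cd-/- than in Pik3cd+/- ovaries and 0 were lower, beside 3.08% and 1.05% of all tested genes. They were Kif4 (0.60 ± 0.10, adjusted p = 0.00608), Bub1b (0.46 ± 0.09, adjusted p = 0.0126), Birc5 (0.43 ± 0.11, adjusted p = 0.033), Cenpf (0.41 ± 0.10, adjusted p = 0.0337) and Ttk (0.37 ± 0.09, adjusted p = 0.0353). All arrays of Kif4, Bub1b, Birc5 and Ttk after PMSG, given above by role, were higher in Pik3cd-/- than in Pik3cd+/- ovaries. Cenpf read 709, 761 and 641 in Pik3cd-/- and 522, 492 and 573 in Pik3cd+/- ovaries, also without overlap. Such separation was seen in 12 of the 45 genes, beside 16.7% of all tested genes, the others being Cenpe, Ect2, Kif23, Ncapg, Nek2, Nuf2 and Prc1. The median difference over the 45 genes was 0.07, with 29 above 0, beside 0.01 for all tested genes. The cyclins, Cdk1 and Cdc25c had differences from -0.19 ± 0.21 (Cdc25c) to -0.03 ± 0.11 (Cdk1), none of which passed the test. Pik3cd+/- PMSG replicate 3 had the highest granulosa marker level of the 18 arrays and the highest mitosis gene level of its group. Without it the median was 0.19 and 8 genes were higher. Leaving out other arrays gave 1 gene (Pik3cd+/- replicate 1 or Pik3cd-/- replicate 2) or 2 genes (Pik3cd+/- replicate 2, or Pik3cd-/- replicate 1 or 3), and Kif4 was higher in every such fit. Same-numbered arrays of these 2 groups deviated together. With the replicate number as a block in the PMSG arrays 2 genes were higher by limma, Kif4 (adjusted p = 0.0105) and Bub1b (adjusted p = 0.023). In that fit Ttk, Birc5 and Cenpf had adjusted p of 0.0554, 0.0539 and 0.0581 by limma. Of 11 alternatives other than single arrays left out, 4 ended the Cenpf call (adjusted p up to 0.566 by limma) and 0 that of Kif4.

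After E2, 13 of the 45 genes were lower in Pik3cd-/- than in Pik3cd+/- ovaries and 1 was higher, beside 12.0% and 4.85% of all tested genes. The 3 largest differences among those lower were those of Cdc25c (-0.86 ± 0.21, adjusted p = 0.0162), Hmmr (-0.80 ± 0.18, adjusted p = 0.0119) and Cenpa (-0.62 ± 0.18, adjusted p = 0.0276). Kif20a had the smallest adjusted p (-0.55 ± 0.11, adjusted p = 0.00698), and read 344, 372 and 308 in Pik3cd+/- and 206, 242 and 241 in Pik3cd-/- ovaries, without overlap. The other nine were Mki67 (-0.59 ± 0.19), the cyclins Ccna2 (-0.58 ± 0.16) and Ccnb2 (-0.58 ± 0.17), Racgap1 (-0.55 ± 0.18), Cenpe (-0.41 ± 0.10), Tpx2 (-0.39 ± 0.12), Kif2c (-0.38 ± 0.11), Cenpf (-0.35 ± 0.10) and Nek2 (-0.28 ± 0.08). Ect2 was the gene that was higher (0.67 ± 0.21, adjusted p = 0.0397), with 682, 1045 and 799 in Pik3cd-/- against 391, 576 and 612 in Pik3cd+/- ovaries, and every Pik3cd-/- array above every Pik3cd+/- array. For Hmmr the arrays read 442, 503 and 405 in Pik3cd+/- and 187, 256 and 340.3 in Pik3cd-/- ovaries, replicate 1 of the latter being the lowest. The 45 genes had a median difference of -0.28 (36 below 0), beside -0.07 for all tested genes, which as a whole lean lower here. Complete separation with Pik3cd-/- lower was seen in 23 genes, beside 24.5% of all tested genes. Replicate 1 of the E2-treated Pik3cd-/- ovaries, whose granulosa marker level was the lowest of its group (10.67), had the lowest mean of its group over the 45 genes, and without it 1 gene was lower, Kif20a, and the median was -0.17. Without Pik3cd+/- replicate 1 there were 3, and without Pik3cd+/- replicate 2 there was 1. In a fit of these groups alone there were 0. Of the 14 calls, 0 were kept in every setting tried. Of 11 alternatives other than single arrays left out, 4 ended the Cenpe call and 5 that of Tpx2. Their differences came as near to 0 as -0.01 and -0.10, with adjusted p up to 0.969 and 0.531 by limma.

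**Figure D4:**
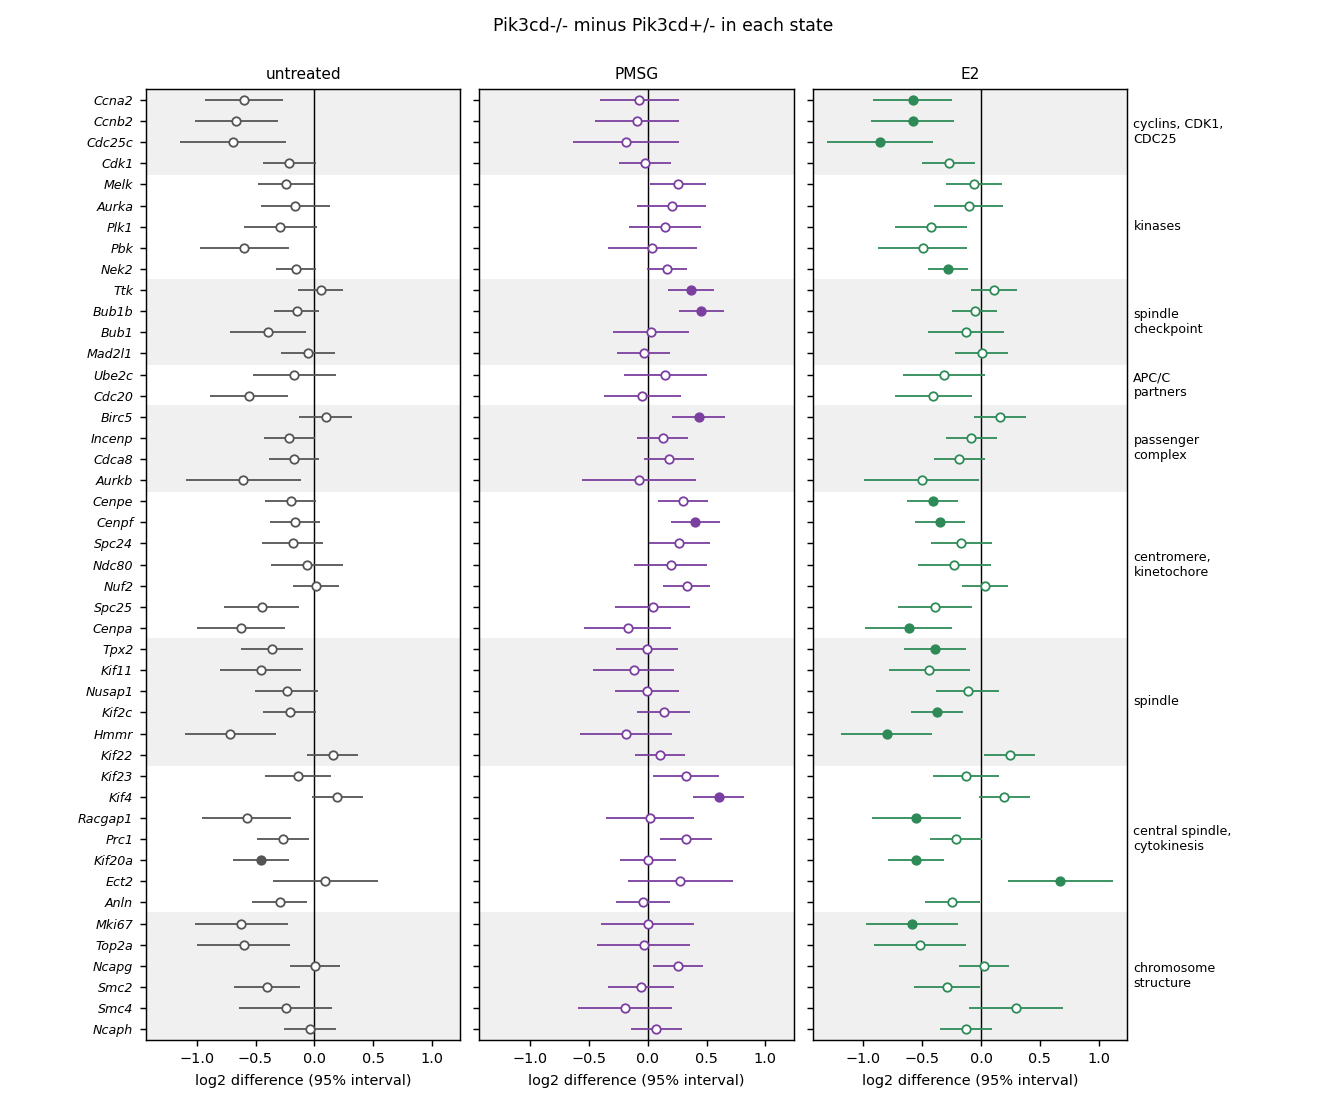
Log2 difference between Pik3cd-/- and Pik3cd+/- ovaries for each of the 45 genes (rows, by role), untreated, after PMSG and after E2, with the 95% interval of the fit and filled points for an adjusted p under 0.05. Most points are below 0 untreated (38) and after E2 (36), whereas 29 are above 0 after PMSG, with 5 filled.

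E2 itself was followed by few differences in these genes. In Pik3cd+/- ovaries Ncapg fell after E2 (-0.46 ± 0.10, adjusted p = 0.0318) and 0 genes rose, beside 0.440% and 1.18% of all tested genes, and the median difference was -0.03, beside 0.00 for all tested genes. The Ncapg call ended when any array of either group was left out, and when the most variable probe set or the mean of all was used. Cenpa and Nek2 had all 3 E2 arrays above all untreated arrays without passing the test (0.24 ± 0.18 and 0.17 ± 0.08, adjusted p = 0.528 and 0.304). In Pik3cd-/- ovaries limma called 0 of the 45 genes after E2, beside 0.0472% lower and 0.00787% higher of all tested genes. An unadjusted p under 0.05 was seen in 4 of the 45, a share not counted over all tested genes here. Ncapg had the smallest adjusted p there too (-0.44 ± 0.10, adjusted p = 0.15), and the median was -0.01, beside -0.05 for all tested genes. The interaction of E2 with genotype passed the adjusted test in 0 of the 45 genes and in 0% of all tested genes, and an unadjusted p under 0.05 in 0 of the 45 against 7.27% of all. Its median was 0.03, with the largest values in Ect2 (0.58 ± 0.30) and Smc4 (0.54 ± 0.26).

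Other genes of the same processes were read from lists of known mitosis genes, subunits of the anaphase-promoting complex and DNA replication genes. These lists too were chosen with earlier results of these data known. After PMSG in Pik3cd+/- ovaries 40 of 72 tested other mitosis genes fell and 0 rose, beside 11.9% and 5.81% of all tested genes, with a median of -0.41. They were led by separase Espl1 (-0.91 ± 0.13, adjusted p = 0.000687), the checkpoint adaptor Spdl1 (-0.69 ± 0.10, adjusted p = 0.00078), the midbody kinase Cit (-0.55 ± 0.09, adjusted p = 0.00221), Mybl2, a transcription factor that turns on mitosis genes (-0.91 ± 0.16, adjusted p = 0.00257), the centromere protein Cenpn (-0.69 ± 0.13, adjusted p = 0.00312) and Wee1, the kinase that keeps CDK1 inactive (-0.43 ± 0.08, adjusted p = 0.00357). Of 38 tested DNA replication genes 27 fell and 0 rose (median -0.43). Examples were the helicase subunits Mcm7 (-0.54 ± 0.08, adjusted p = 0.000626) and Mcm4 (-0.50 ± 0.10), the origin licensing factor Cdt1 (-0.66 ± 0.11), the polymerase delta subunit Pold1 (-0.67 ± 0.12), the primase Prim1 (-0.62 ± 0.12) and Uhrf1, which acts in copying DNA methylation (-0.67 ± 0.14). The 15 subunits of the anaphase-promoting complex, which is present throughout the cycle, had a median of -0.13, with 1 that rose, Anapc7 (0.41 ± 0.11, adjusted p = 0.0204), and 1 that fell, Anapc4 (-0.27 ± 0.09, adjusted p = 0.0373).

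In Pik3cd-/- ovaries PMSG was followed by no call among the 72 other mitosis genes (median -0.07, 12 with an unadjusted p under 0.05 by limma) or the 38 DNA replication genes (median -0.14, 10 with an unadjusted p under 0.05), and Anapc7 rose (0.61 ± 0.11, adjusted p = 0.00951). Of all tested genes 0.684% fell and 1.71% rose in that comparison. After PMSG 11 of the 72 other mitosis genes were higher in Pik3cd-/- than in Pik3cd+/- ovaries and 0 lower, beside 3.08% and 1.05% of all tested genes, among them Iqgap3 (0.67 ± 0.11), Cit (0.56 ± 0.09), Cenpn (0.67 ± 0.13), Espl1 (0.68 ± 0.13), the securin Pttg1 (0.84 ± 0.17) and the spindle pole protein Aspm (0.62 ± 0.14). Untreated, 4 of the 72 were lower and 0 higher, beside 1.34% and 0.834% of all: Sgo2a (-0.62 ± 0.13) and Sgo1 (-0.49 ± 0.12), which protect sister chromatid cohesion, Ckap2l (-0.64 ± 0.14) and the condensin subunit Ncapd2 (-0.70 ± 0.15). After E2, 8 were lower, led by Ckap2l (-0.59 ± 0.14) and Sgo2a (-0.56 ± 0.13), and 1 was higher, Aspm (0.48 ± 0.14), which is no larger a share than the 12.0% lower and 4.85% higher of all tested genes. Of the DNA replication genes, Mcm7 was lower untreated (-0.31 ± 0.08, adjusted p = 0.0478), Uhrf1 and E2f1 were higher after PMSG (0.71 ± 0.14 and 0.39 ± 0.10), and Uhrf1 and Slbp were higher after E2 (0.60 ± 0.14 and 0.40 ± 0.11). These are 1, 2 and 2 of 38 genes, beside 1.34% lower, 3.08% higher and 4.85% higher of all tested genes, so the shares are near those of all genes. Of the anaphase-promoting complex subunits, 4 of 15 were lower after E2, where 12.0% of all tested genes were: Cdc16 (-0.25 ± 0.07), Cdc27 (-0.38 ± 0.11), Anapc5 (-0.23 ± 0.07) and Anapc2 (-0.33 ± 0.10).

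Markers of oocytes moved beside the mitosis genes after PMSG in Pik3cd+/- ovaries. In Pik3cd+/- ovaries 19 of 23 tested oocyte markers fell after PMSG and 0 rose (median -0.91), beside 11.9% and 5.81% of all tested genes. Among those that fell were Zp1, Zp2 and Zp3, which encode coat proteins of the egg. The mean log2 level of the oocyte markers in single arrays was 9.97 to 10.18 untreated, 9.16 to 9.33 after PMSG and 9.40 to 9.62 after E2. In Pik3cd-/- ovaries it was 10.60 to 10.92 untreated, 10.25 to 10.38 after PMSG and 9.91 to 10.81 after E2. After PMSG in that genotype the oocyte median was -0.44, beside a mitosis gene median of -0.04. There 0 of the 23 markers fell, beside 0.684% of all tested genes. By limma 13 of the 23 and 4 of the 45 mitosis genes had an unadjusted p under 0.05. That share was not counted over all tested genes. Between genotypes the oocyte markers and the mitosis genes went opposite ways in 2 states. Of the 23 markers, 9, 19 and 22 were higher in Pik3cd-/- ovaries untreated, after PMSG and after E2. Of all tested genes 0.834%, 3.08% and 4.85% were higher. The oocyte medians were 0.67, 1.06 and 0.99, while the mitosis gene medians were -0.24, 0.07 and -0.28. After E2 in Pik3cd+/- ovaries the oocyte median was -0.63, beside a mitosis gene median of -0.03. In that comparison 1 of the 23 markers fell, beside 0.440% of all tested genes. The part of oocyte RNA in the mitosis gene values was not tested.

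**Figure D5:**
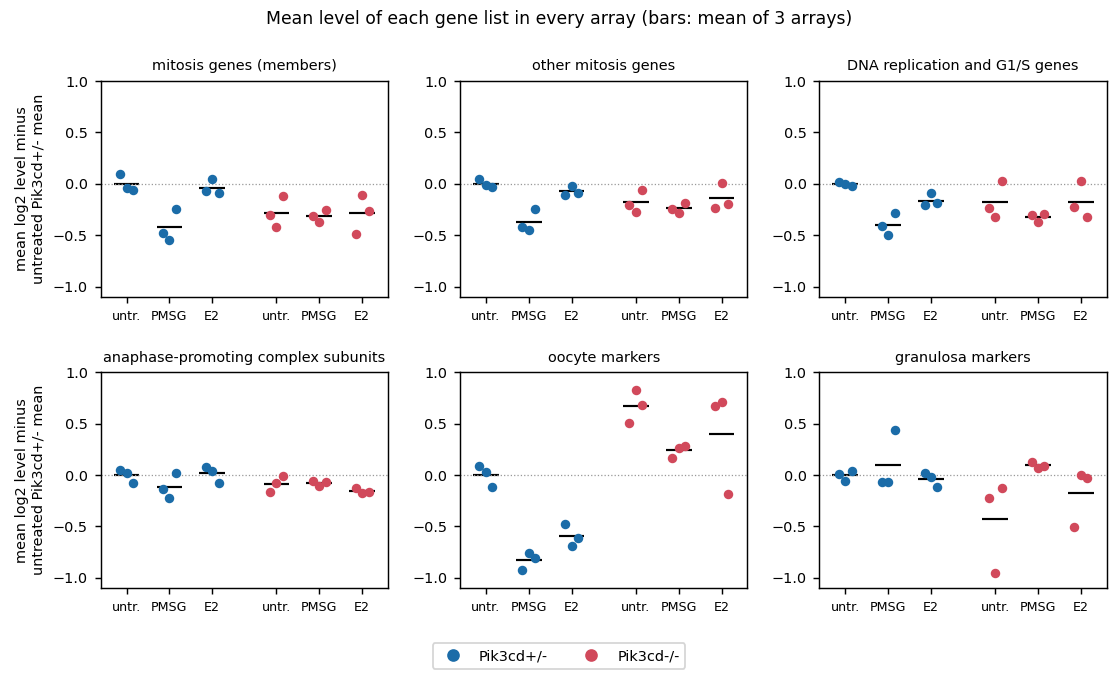
Mean log2 level of 6 gene lists in each of the 18 arrays, minus the mean of the 3 untreated Pik3cd+/- arrays, with bars for the mean of each group of 3. The group means of mitosis and DNA replication genes are lowest after PMSG in Pik3cd+/- ovaries, oocyte markers are above 0 in 8 of 9 Pik3cd-/- arrays, and 1 untreated Pik3cd-/- array has a low granulosa level.

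Granulosa markers showed no common shift of that kind after PMSG in Pik3cd+/- ovaries: of 15 tested, 1 rose (Fshr) and 1 fell (Amh), with a median of -0.04. Group means went both ways there, so the median does not measure the share of granulosa cells. Inhba read 1982 untreated and 6600 after PMSG, and Fshr 204 and 512. Foxl2 read 2897 and 2499, and Amhr2 3375 and 2764. The mean log2 level of the granulosa markers was 11.12 to 11.22 untreated and 11.10 to 11.61 after PMSG. In Pik3cd-/- ovaries it was 10.22 to 11.05 and 11.24 to 11.31. Untreated, the median genotype difference of the granulosa markers was -0.47. Of the 15 markers 2 were lower and 1 higher, beside 1.34% and 0.834% of all tested genes. Against the mean of the untreated Pik3cd+/- arrays, the marker median was -0.16, -0.90 and -0.09 in untreated Pik3cd-/- replicates 1, 2 and 3. Replicate 2 thus stood far below the others. Of 7 tested theca markers 3 rose and 2 fell after PMSG in Pik3cd+/- ovaries (median 0.36), and of 9 stromal fibroblast markers 1 fell (median 0.05). Macrophage markers had 4 of 10 that rose (median 0.93) and smooth muscle markers 2 of 6 (median 0.57). Of all tested genes 5.81% rose and 11.9% fell after PMSG in Pik3cd+/- ovaries, and the granulosa and stromal counts lie near those shares. Lymphocyte markers had 1 that rose and 1 that fell of 4 tested, and 0 of 8 endothelial, 0 of 6 surface epithelium, 0 of 3 oviduct and 0 of 2 adipocyte markers passed the test by limma, nor did any of them at an unadjusted p under 0.05. Between genotypes without treatment 0 markers of the macrophage, smooth muscle, stromal and surface epithelium lists passed the test by limma, with medians of 0.61, 0.42, 0.41 and 0.39, and 2, 0, 3 and 2 of them had an unadjusted p under 0.05. After E2 the Pik3cd-/- replicate 2 stood apart: its mean log2 level was 4.87 for adipocyte markers against 8.71 and 9.73 in replicates 1 and 3, 9.52 for smooth muscle markers against 10.76 and 10.79, and 10.68 for stromal markers against 11.63 and 11.91. It had the highest mitosis gene level of its group (9.60), and without it 14 of the 45 genes differed between genotypes after E2, with a median of -0.35. No marker had a group mean of 0. The part of these cell types in the mitosis gene differences was not tested.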

How the data were processed

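Total RNA of 18 ovary samples was measured on Affymetrix Mouse Genome 430 2.0 arrays. The authors deposited 1 linear intensity for each probe set in each array, made with MAS5 per the submitters' processing notes, with version and scaling not given in the sources used here. Array medians were alike, and no further normalization was applied. Probe sets were named from the platform's annotation, leaving out 64 controls, 9160 probe sets without a symbol and 932 with several. The brightest of the 34945 probe sets with 1 symbol stood for its gene.

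Intensities were tested as log2(intensity + 8.58), the 10th percentile of all values, in genes with at least 1 group mean above the median of 5.87. A fold change on this scale understates that of dim genes. Means of 6 groups were fitted with limma 3.58.1 in R 4.3.3 (eBayes with a trend, 12 residual and 3.66 prior degrees of freedom, two-sided, Benjamini-Hochberg over 12713 genes) for 9 comparisons, and the fit was checked on simulated data. With 3 arrays a group, their number limits the precision. P-values measure the spread between the labelled biological repeats.

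The members, their roles and the other lists were chosen with earlier results of these data known. For each role, array values are given of the gene whose adjusted p after PMSG in Pik3cd+/- was smallest and of the gene with the highest mean signal. Every gene called in another comparison is named. The share of all tested genes with an unadjusted p under 0.05 was counted for the interactions only. Of the related lists, up to 6 called genes with the smallest adjusted p are named. Bub1b, Kif23, Kif20a, Hmmr, Cenpf and Ect2 array values were added after their differences were seen. Of 45 same-numbered pairs, 11 correlated above 0.1 (range -0.34 to 0.34). In 1 of 15 pairs of groups, Pik3cd+/- and Pik3cd-/- after PMSG, all 3 did (0.25 to 0.30), so the numbers were taken to pair arrays in that comparison alone; the labels give no source for it. Alternatives tried were quantile normalization, pseudocounts of 1 and 64, the filter dropped or set to the 70th percentile, no trend, a replicate block, the most variable probe set or the mean of all, a fit of only the groups compared, each array left out, and, chosen after seeing the data, every probe set by itself, a replicate block in the PMSG arrays only, and the arrays with the lowest granulosa level in 2 Pik3cd-/- groups left out together.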

Additional observations from a re-analysis of the deposited data

How the results depend on the processing

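The median difference of the 45 genes moved by less than the spread between arrays under each alternative it was computed for, except when Pik3cd+/- PMSG replicate 3 was left out (-0.59 for PMSG in Pik3cd+/- ovaries and 0.19 for genotype after PMSG). Over single arrays left out it ran from -0.59 to -0.37 for PMSG in Pik3cd+/- ovaries and from 0.033 to 0.19 for genotype after PMSG, and the count of called genes from 13 to 31 and from 1 to 8. The count ran from 0 to 1 for PMSG in Pik3cd-/-, was 0 throughout for E2 in Pik3cd+/-, and ran from 0 to 12 for genotype untreated and from 1 to 16 for genotype after E2. For both interactions and for E2 in Pik3cd-/- ovaries it was 0 under every alternative run. Of the calls, 13 of 26 for PMSG in Pik3cd+/-, 1 of 5 for genotype after PMSG and 1 of 14 for genotype after E2 were kept whichever array was left out.

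With the replicate block, 22 genes were called for PMSG in Pik3cd+/-, 4 for genotype after PMSG, 12 for genotype after E2, and 0 for PMSG in Pik3cd-/-, E2 in Pik3cd+/- and genotype untreated. With a replicate block in the PMSG arrays only, where the numbers paired, 2 were called for genotype after PMSG. In the other comparisons the numbers do not pair the arrays, and 5 of 18 arrays correlated best with their own number. For genotype untreated the count was 0 with a pseudocount of 1, with no filter, without a trend and without both arrays of lowest granulosa level, 2 with a pseudocount of 64, 3 with a filter at the 70th percentile, with the mean of all probe sets and with every probe set by itself, and 4 with quantile normalization. For PMSG in Pik3cd-/- it was 0 with no filter, the most variable probe set, the mean of probe sets, only the groups compared, or both arrays left out. For E2 in Pik3cd+/- it was 0 with the most variable probe set or the mean and 2 with only the groups compared. It was 2 with the mean of probe sets for genotype after PMSG. For genotype after E2 it was 8 with quantile normalization, 9 with the mean, 0 with only the groups compared and 3 without both arrays. In the other settings counts stayed within 1.5 times, from 22 to 30 for PMSG in Pik3cd+/-. No called difference changed sign, but medians near 0 did in some settings: 1 of 17 for PMSG in Pik3cd-/-, 1 of 16 for E2 in Pik3cd+/-, 4 of 17 for E2 in Pik3cd-/- and 4 of 23 for the E2 interaction. The cause of these shifts was not tested.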
